A study of Mus musculus with 4 samples.

Results

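The 9 transcription factors of the eye field and of retinal progenitor cells, Pax6, Rax, Lhx2, Six3, Six6, Sox2, Sox9, Meis1 and Meis2, were examined in the retina of mouse embryos at embryonic day 19. They were chosen by name from a deposited table of 18471 genes. All 9 were found in it, and all 9 were among the 17300 genes that passed the filter on low counts. There were 2 libraries labelled wild-type and 2 labelled Foxn3KO, each from the retina of an individual genotyped embryo. The Foxn3KO embryos are homozygous (Foxn3-/-) for an allele, C57BL/6NJ-Foxn3em1(IMPC)Bay/Mmnc, that lacks exon 3 of Foxn3, a gene for a forkhead transcription factor; no tissue-specific driver is named, and the sex and litter of the embryos are not given. The study as a whole concerns a transcriptional network with Foxn3 that regulates primary cilia.

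The eye field is the group of cells in the anterior neural plate from which both eyes form, and it is defined by the joint expression of Pax6, Rax, Lhx2, Six3 and Six6. Most of these factors stay on in the multipotent progenitors of the optic cup, together with the SOX proteins Sox2 and Sox9 and the TALE homeodomain proteins Meis1 and Meis2, and they keep these cells dividing and able to form every retinal neuron. Close to birth the progenitors are still producing rods, amacrine cells and the last cell classes, and several of the factors are also used by differentiated cells: Pax6, Meis2, Sox2 and Six3 in amacrine cells, Pax6 in ganglion cells, and Sox9, Sox2, Rax and Lhx2 in Müller glia.

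In these retinas 4 of the 9 genes rose in the libraries labelled Foxn3KO and none fell. Sox9 rose by 27.8%, Six3 by 13.0%, Sox2 by 12.5% and Six6 by 10.4%. Pax6, Rax, Lhx2, Meis1 and Meis2 did not pass the test. A gene was called when its adjusted p was under 0.05 (edgeR quasi-likelihood test, Benjamini-Hochberg adjustment over all 17300 genes). By that rule 21.9% of all tested genes were called in either direction and 12.3% were called higher, so 4 of 9 is set against a high background. DESeq2, another count test, called 2 of the 9, Sox2 and Sox9, and 16.3% of the genes it tested. Among the 3105 tested genes with a mean at least as high as that of the lowest of the 9, 33.8% were called. The median log2 fold change was 0.114 over the 9 genes and -0.0047 over all tested genes.

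Total counts were 22543531 to 29360129 per library. The targeted gene, Foxn3, was at 97.63 and 99.82 CPM (counts scaled to library size with TMM factors) in the wild-type label and at 143.6 and 143.7 CPM in the Foxn3KO label, a rise (log2 fold change 0.54, edgeR adjusted p = 7.8e-08). A level of the whole gene does not resolve exon 3, so the labels could not be checked with it, and every direction here rests on them. Wild-type replicate 1 stood apart in sex-linked genes: only there was Xist above 19 counts (83073), and only there were Ddx3y, Eif2s3y and Kdm5d at 0. By these genes wild-type replicate 1 is from a female and the other libraries are from males, so sex is not balanced between the groups. Values below without wild-type replicate 2 compare a female wild-type library with male Foxn3KO libraries. In them genotype and sex cannot be told apart. Values without wild-type replicate 1 are given below for the members and for the named genes whose call it changes. With 2 libraries per group, p-values rest only in part on the spread of a gene between these individual retinas. The quasi-likelihood fit also draws on the spread of all tested genes. In the wild-type group the spread includes a difference in sex. In bulk tissue, a change in the number of cells that express a gene and a change in RNA per cell cannot be told apart.

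The proximal promoters of the 3 called genes with an entry in the RefSeq promoter table show what could be compared in sequence between genes that rose together. Shown are the 250 bases upstream of the start, on the coding strand, in build GRCm38.p6: Sox2 at chr3:34649745-34649994, Six3 at chr17:85620584-85620833 and Six6 at chr12:72939632-72939881, all on the + strand. The deposited counts were made on another build, mm39. Capitals mark matches, on either strand, to GACGC or to CCAAT.
Sox2: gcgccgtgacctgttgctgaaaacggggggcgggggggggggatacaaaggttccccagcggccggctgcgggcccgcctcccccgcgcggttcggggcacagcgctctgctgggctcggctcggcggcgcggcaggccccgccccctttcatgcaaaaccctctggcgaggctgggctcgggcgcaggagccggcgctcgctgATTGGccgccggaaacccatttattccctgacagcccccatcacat
Six3: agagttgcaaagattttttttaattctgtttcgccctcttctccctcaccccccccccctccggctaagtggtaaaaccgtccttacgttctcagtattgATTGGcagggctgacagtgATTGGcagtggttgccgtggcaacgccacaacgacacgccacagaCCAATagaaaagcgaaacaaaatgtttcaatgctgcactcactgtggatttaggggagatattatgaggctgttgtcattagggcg
Six6: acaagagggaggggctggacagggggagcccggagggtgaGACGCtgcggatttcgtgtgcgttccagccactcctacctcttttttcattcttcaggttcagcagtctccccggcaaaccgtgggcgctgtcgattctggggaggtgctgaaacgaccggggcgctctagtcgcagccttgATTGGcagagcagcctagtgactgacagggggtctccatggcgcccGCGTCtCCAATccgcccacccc

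Forkhead proteins bind the core GTAAACA, and FOXN3 also binds GACGC. No GTAAACA or its reverse complement TGTTTAC lies in any of the 9 upstream windows found for 7 of the 9 genes (Pax6 and Lhx2 have 2 windows each); it is present in 3.17% of all 32851 windows. GACGC or its reverse complement GCGTC is present in 3 of the 9 windows, against 22.6% of all windows. Six6 has 2 matches, and Lhx2 and Meis1 have 1 each. The CCAAT box, a common promoter element bound by NF-Y and searched after the sequences had been seen, is present with its reverse complement ATTGG in 6 of the 9 windows, against 33.8% of all. Six3 has 3 matches, Six6 has 2 and Sox2 has 1. Pax6, Meis1 and Meis2, which were not called, have 1 each, so the matches are not particular to the called genes. The longest run that the windows of the paralogs Six3 and Six6 share is TTGATTGGCAG, of 11 bases, around an ATTGG. It was searched after the sequences had been seen, and it is present in 11 of the 32851 windows. No match overlaps another. These are matches of letters and not measured binding sites, and no match says only that the letters are not in this window.

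Levels of different genes were compared per gene length, with the FPKM that the authors deposited. Sox2 was highest, with 77.4 and 80.7 FPKM in the wild-type label and 90.3 and 87.9 FPKM in those labelled Foxn3KO. Six3 followed with a mean of 82.4 FPKM over the 4 libraries, then Pax6 with 72.5, Rax with 68.3, Lhx2 with 50.1 and Six6 with 49.4. Sox9 at 21.5, Meis2 at 17.4 and Meis1 at 16.6 FPKM formed the lower end. The order did not hold in every library for neighbours whose ranges overlapped: Sox2 and Six3, Six3 and Pax6, Lhx2 and Six6, and Meis2 and Meis1. Pax6 was above Rax, Rax above Lhx2, Six6 above Sox9 and Sox9 above Meis2 without overlap in the 4 libraries.

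**Figure D1:**
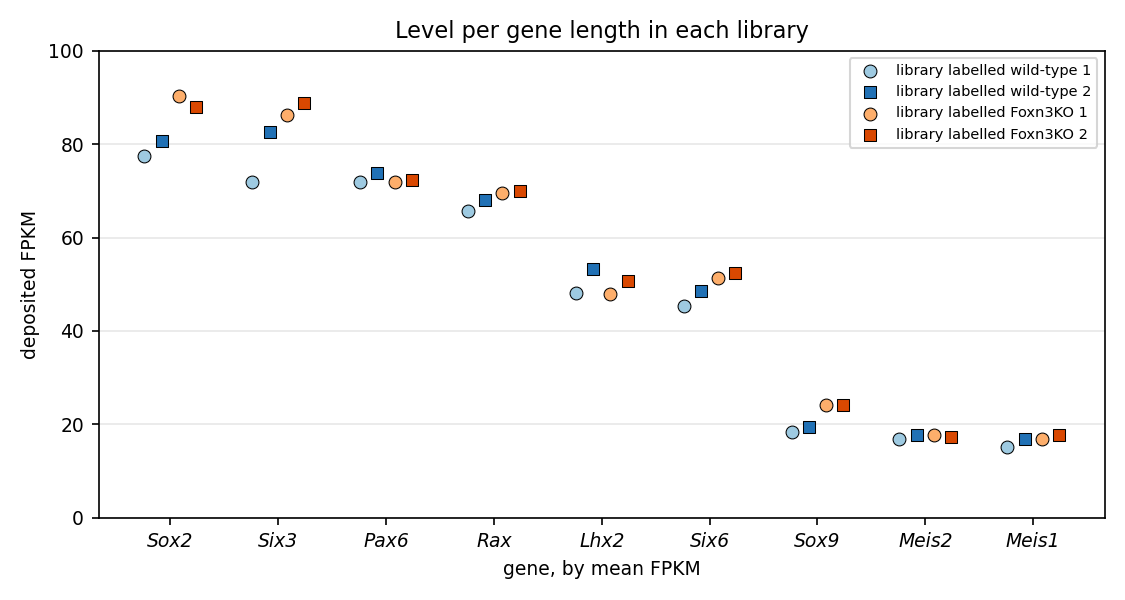
Deposited FPKM (vertical axis, from 0) of the 9 genes, in order of their mean; each point is 1 library. Sox2, Six3, Pax6 and Rax lie between 65.6 and 90.3 FPKM, while Sox9, Meis2 and Meis1 lie at or under 24.2.

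The SOX factors were considered first. Sox9 (ENSMUSG00000000567, chromosome 11), an HMG-box factor that acts in progenitors and is later kept in Müller glia, had 76.05 and 80.53 CPM in the libraries labelled wild-type against 99.93 and 100.2 CPM in those labelled Foxn3KO. Both Foxn3KO values were above both wild-type values, and they differed from each other by far less than from the wild-type libraries. The means were 78.29 ± 3.17 and 100.1 ± 0.219 CPM (SD, n = 2 each). The log2 fold change was 0.35 (SE 0.0506, 95% interval 0.247 to 0.461, edgeR adjusted p = 5.17e-05). Sox9 was called by every tool and scaling tested and with each library left out in turn, where it ranged from 0.315 to 0.396.

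Sox2 (ENSMUSG00000074637, chromosome 3), which keeps progenitors competent to divide and to form neurons, had 160.1 and 166.4 CPM in the libraries labelled wild-type against 186.2 and 181.2 CPM in those labelled Foxn3KO. The groups did not overlap. The means were 163.2 ± 4.51 and 183.7 ± 3.56 CPM (SD, n = 2 each). The log2 fold change was 0.17 (SE 0.0446, 95% interval 0.076 to 0.265, edgeR adjusted p = 0.0103). Sox2 was also called by DESeq2 (adjusted p = 0.0174). It was not called when Foxn3KO replicate 1 or replicate 2 was left out (edgeR adjusted p = 0.198 and 0.0717), with log2 fold changes of 0.151 and 0.193. Leaving out wild-type replicate 1 gave 0.145, still called (edgeR adjusted p = 0.00174).

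The homeodomain paralogs Six3 and Six6 followed. Six3 (ENSMUSG00000038805, chromosome 17), which sets up the anterior neural plate and eye field by repressing Wnt signalling, had 393.5 and 451.8 CPM in the libraries labelled wild-type against 470.6 and 484.8 CPM in those labelled Foxn3KO. The groups did not overlap, but the wild-type libraries were farther apart from each other than wild-type replicate 2 was from Foxn3KO replicate 1. The means were 422.6 ± 41.2 and 477.7 ± 10.1 CPM (SD, n = 2 each). The log2 fold change was 0.18 (SE 0.0527, 95% interval 0.066 to 0.288, edgeR adjusted p = 0.0223). Wild-type replicate 1 set much of this value: the log2 fold change was 0.0815 without it (edgeR adjusted p = 0.0344) and 0.280 without wild-type replicate 2. Six3 was not called by DESeq2 (adjusted p = 0.265) or without Foxn3KO replicate 1 or 2 (edgeR adjusted p = 0.0672 and 0.183).

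Six6 (ENSMUSG00000021099, chromosome 12), the paralog of Six3 that keeps progenitors dividing in part by repressing cell cycle inhibitors, had 183.0 and 195.1 CPM in the libraries labelled wild-type against 206.5 and 211.0 CPM in those labelled Foxn3KO. The groups did not overlap. The means were 189.1 ± 8.56 and 208.7 ± 3.2 CPM (SD, n = 2 each). The log2 fold change was 0.14 (SE 0.0454, 95% interval 0.047 to 0.238, edgeR adjusted p = 0.0316). Six6 missed the threshold under DESeq2 (adjusted p = 0.0617), under total count scaling (edgeR adjusted p = 0.0624) and without Foxn3KO replicate 1 or 2 (edgeR adjusted p = 0.165 and 0.290). Without wild-type replicate 1 it was called, at 0.0979 (edgeR adjusted p = 0.0406).

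The other eye-field factors, Pax6, Rax and Lhx2, did not pass the test. Pax6 (ENSMUSG00000027168, chromosome 2), the paired-box factor needed for eye formation and for the multipotency of progenitors, had 846.1 and 865.1 CPM in the libraries labelled wild-type against 844.0 and 848.6 CPM in those labelled Foxn3KO. The groups overlapped. The log2 fold change was -0.02 (SE 0.039, edgeR adjusted p = 0.821), and its 95% interval ran from -6.57% to 4.72%, so Pax6 was the most tightly bounded of the 9 genes. Rax (ENSMUSG00000024518, chromosome 18), a homeodomain factor at the start of the eye-field programme and later active in photoreceptor precursors and Müller glia, had 385.6 and 399.6 CPM against 407.9 and 410.0 CPM. Its groups did not overlap, but the log2 fold change of 0.06 (SE 0.0405) was not called (edgeR adjusted p = 0.338); its 95% interval ran from -1.82% to 10.5%. Without wild-type replicate 1 the log2 fold change of Rax was 0.0350. Without wild-type replicate 2 it was 0.0849, where genotype and sex cannot be told apart. For Pax6, leaving out wild-type replicate 1 gave -0.0303.

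Lhx2 (ENSMUSG00000000247, chromosome 2), a LIM-homeodomain factor needed for the optic vesicle to become an optic cup, had 212.9 and 234.4 CPM in the libraries labelled wild-type against 211.2 and 224.0 CPM in those labelled Foxn3KO. The groups overlapped, and the 2 libraries of each group were farther apart than the group means, 223.7 ± 15.2 and 217.6 ± 9.03 CPM (SD, n = 2 each). The log2 fold change was -0.04 (SE 0.0502, edgeR adjusted p = 0.625, 95% interval -9.62% to 4.67%). It depended on the wild-type library: without wild-type replicate 1 it was -0.108 and called lower (edgeR adjusted p = 0.0155), and without wild-type replicate 2 it was 0.0293 (edgeR adjusted p = 0.616). Without Foxn3KO replicate 1 it was 0.0026.

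Meis1 and Meis2 are TALE homeodomain proteins that act upstream of Pax6 in the lens and retina and mark dividing progenitors; Meis2 is also kept in amacrine cells. Meis1 (ENSMUSG00000020160, chromosome 11) had 159.4 and 178.0 CPM in the libraries labelled wild-type against 178.0 and 187.2 CPM in those labelled Foxn3KO. Wild-type replicate 2 and Foxn3KO replicate 1 were level, and wild-type replicate 1 was low. Its log2 fold change of 0.11 (SE 0.0524) was not called (edgeR adjusted p = 0.137). It was 0.0360 without wild-type replicate 1. It was 0.194 without wild-type replicate 2, where genotype and sex cannot be told apart. Meis2 (ENSMUSG00000027210, chromosome 2) had 203.3 and 213.9 CPM against 213.6 and 209.1 CPM, with a log2 fold change of 0.02 (SE 0.0441, edgeR adjusted p = 0.813, 95% interval -5.03% to 8.04%). Without wild-type replicate 1 the value for Meis2 was -0.0153.

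**Figure D2:**
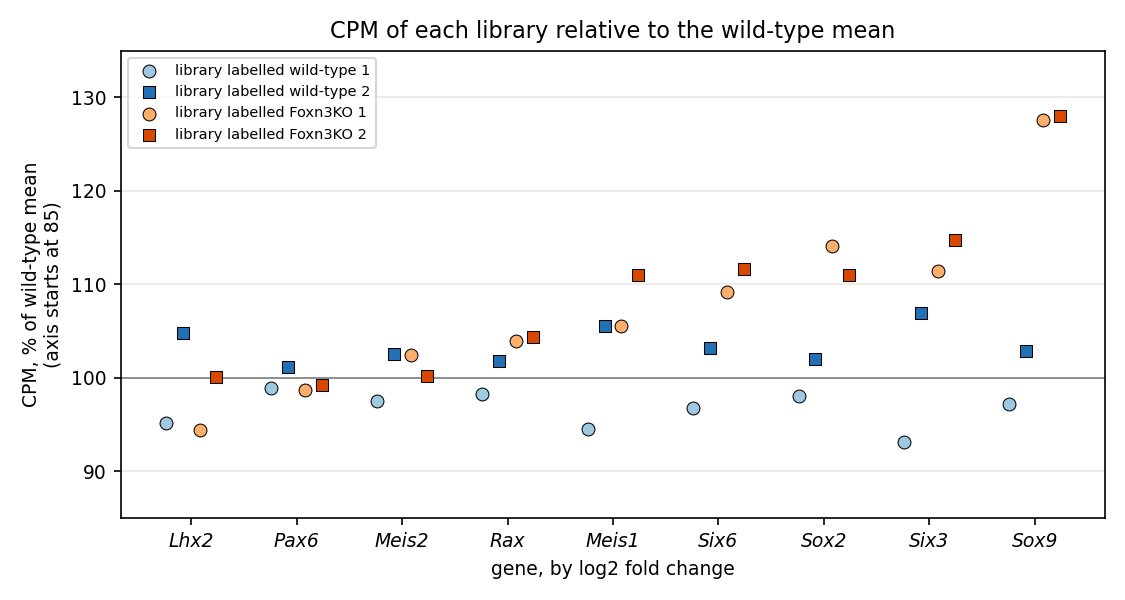
CPM of each library as a percentage of the wild-type mean of the same gene (vertical axis, which starts at 85), for the 9 genes in order of their log2 fold change; each point is 1 library. The Foxn3KO points of Sox9 sit at 127.6 and 128.0, and wild-type replicate 1 is the lower wild-type point for every gene shown.

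Wild-type replicate 1, the library with the female pattern, was below wild-type replicate 2 for all 9 genes, by a median of 0.083 on the log2 CPM scale. The part of sex in this gap was not tested. Over all 17300 tested genes 49.5% were higher in wild-type replicate 2. The gap was widest for Six3 (0.199), Meis1 (0.159) and Lhx2 (0.139) and smallest for Pax6 (0.032). Between the Foxn3KO libraries 7 of the 9 genes were higher in replicate 2, by a median over the 9 of 0.008. The groups did not overlap for 5 of the 9 genes, Rax and the 4 called ones, all higher in the libraries labelled Foxn3KO; of all tested genes 29.9% did not overlap and were higher, and 60.4% did not overlap in either direction.

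**Figure D3:**
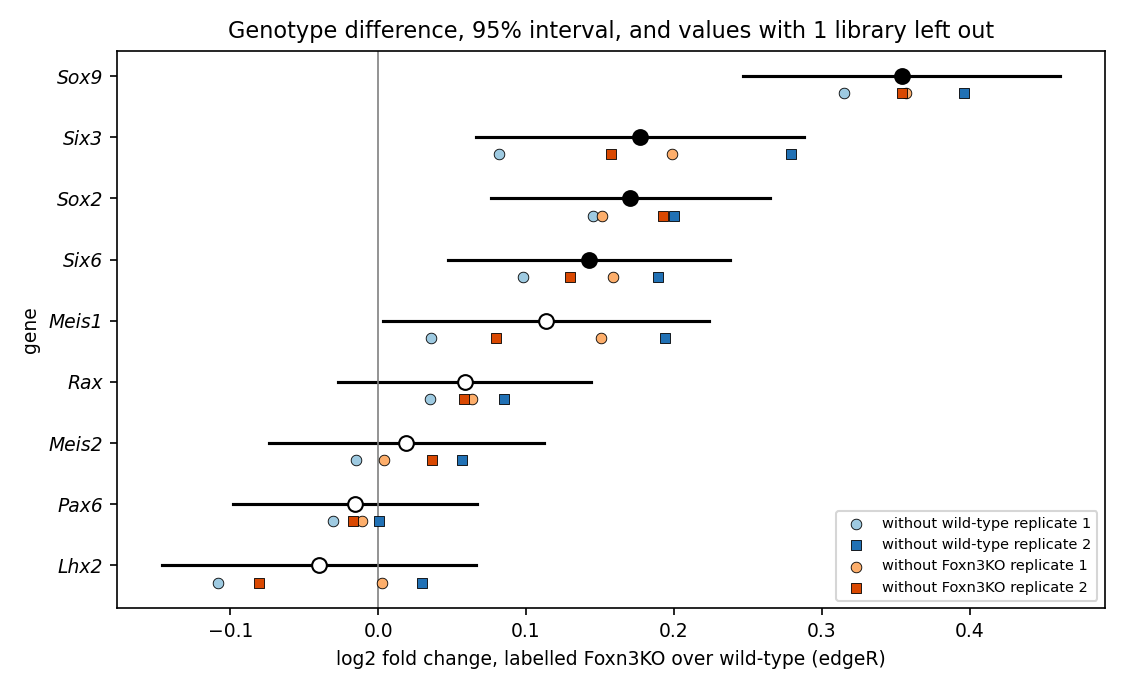
Log2 fold change of the libraries labelled Foxn3KO over those labelled wild-type (horizontal axis), with its unadjusted 95% interval (line), filled where called; the small points give the value with 1 library left out. Sox9 stays between 0.315 and 0.396, while Lhx2 and Meis2 lie on both sides of 0.

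In the authors' deposited table, Sox9 (log2 fold change 0.343, adjusted p = 5.62e-06) and Sox2 (0.166, adjusted p = 0.0181) had an adjusted p under 0.05. Six6 and Six3 did not, with adjusted p = 0.0637 and 0.272 in the authors' deposited table.

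At the loci of Six3, Six6 and Sox2, another gene that overlaps the member was called lower where the member was called higher. Six3os1 is a long noncoding RNA gene transcribed from the strand opposite to Six3. It had 889.8 and 942.2 CPM in the libraries labelled wild-type against 758.9 and 763.9 CPM in those labelled Foxn3KO. It fell by 16.9% (log2 fold change -0.27, SE 0.0412, edgeR adjusted p = 0.000118), with no overlap between the groups. Its call held with each library left out, with values from -0.306 to -0.225. The protein-coding gene 4930447C04Rik, opposite to Six6, had 49.68 and 45.42 CPM in the libraries labelled wild-type against 38.19 and 41.08 CPM in those labelled Foxn3KO. It fell by 16.7% (log2 fold change -0.26, SE 0.0661, edgeR adjusted p = 0.00788), and was not called without Foxn3KO replicate 1 (-0.210, edgeR adjusted p = 0.130).

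Sox2ot, a noncoding RNA gene on the same strand in whose span Sox2 lies, had 43.03 and 41.74 CPM in the libraries labelled wild-type against 36.92 and 36.88 CPM in those labelled Foxn3KO. It fell by 12.9% (log2 fold change -0.20, SE 0.062, edgeR adjusted p = 0.0278). Sox2ot was not called by DESeq2 (adjusted p = 0.139) or without wild-type replicate 1, Foxn3KO replicate 1 or Foxn3KO replicate 2 (edgeR adjusted p = 0.0527, 0.175 and 0.178, at log2 fold changes of -0.176, -0.200 and -0.197). At the Pax6 locus, Pax6os1 (log2 fold change 0.03, edgeR adjusted p = 0.902) and Paupar (0.08, edgeR adjusted p = 0.728) were not called. Of the 5 tested transcripts of this list, 3 were called lower and 0 higher, with a median log2 fold change of -0.2; 9.66% of all tested genes were called lower. That list leaves out other genes that overlap a member. Of all 11 tested genes that overlap a member in GENCODE M21, 4 were called lower, 0 higher and 7 were not called, with a median log2 fold change of -0.19. The fourth, Gm28528, lies opposite to Six3 and shares 168 exonic bases with it. It had 115 and 96 counts in the wild-type label and 76 and 60 counts in the Foxn3KO label (log2 fold change -0.62, edgeR adjusted p = 0.037). Gm28528 was not called by DESeq2 (adjusted p = 0.161) or voom (adjusted p = 0.0517), or without wild-type replicate 1, where it was at -0.418, Foxn3KO replicate 1 or Foxn3KO replicate 2 (edgeR adjusted p = 0.243, 0.130 and 0.0848). The 7 that were not called lie at the loci of Pax6, Rax, Lhx2 and Meis1, whose members were not called either. Several of them had few counts, at which a change can be missed. Gm16141 had 5 and 12 counts in the wild-type label and 15 and 18 in the Foxn3KO label. Raxos1 had 51 and 39 against 38 and 40, and Gm27197 had 45 and 56 against 43 and 30 (log2 fold change -0.455). In GENCODE M21 exons of Six3 share 106 bases with Six3os1 and those of Six6 share 192 bases with 4930447C04Rik, while Sox2 and Sox2ot share 0. The libraries were made with a strand-specific kit, but use of strand in counting is not given in the sources used here, so for Six3 and Six6 reads of the partners cannot be told apart where exons overlap.

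**Figure D4:**
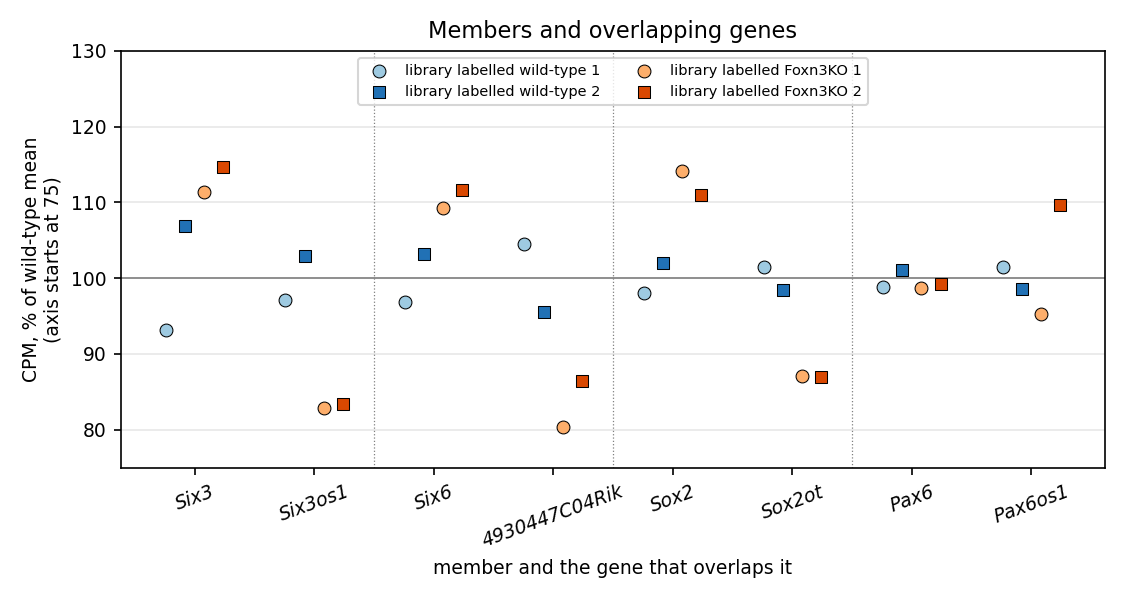
CPM as a percentage of the wild-type mean of the same gene (vertical axis, which starts at 75) for 4 members, each beside the gene that overlaps it; each point is 1 library. Six3os1 is at 82.86 and 83.39 in the libraries labelled Foxn3KO where Six3 is at 111.4 and 114.7, and Pax6 shows no such gap.

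Other regulators of the eye field and of progenitors moved both ways. Of 22 tested, 5 were called higher and 4 lower, with a median log2 fold change of -0.041. Nr2f2, an orphan nuclear receptor of the dorsoventral axis of the eye, rose from 55.27 to 76.06 CPM (log2 fold change 0.46, edgeR adjusted p = 5.65e-06). Foxd1, a forkhead factor of the temporal retina, rose by 0.39 and Hey1, a Notch effector, by 0.23 on the log2 scale. Sox8, a SOX factor of the same subgroup as Sox9, went the opposite way to Sox9: it had 204.3 and 217.2 CPM in the libraries labelled wild-type against 153.9 and 155.3 CPM in those labelled Foxn3KO (log2 fold change -0.45, edgeR adjusted p = 8.63e-07). DESeq2 also called 5 of these 9 genes; without Foxn3KO replicate 1 or 2, 5 and 4 of the 9 were called.

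Paralogs of the 9 genes were mostly not called. Of 14 tested, 1 was higher and 2 lower, with a median of -0.02. Sox3, of the same subgroup as Sox2, rose from 15.16 to 23.76 CPM (log2 fold change 0.65, edgeR adjusted p = 2.98e-05), and Meis3 and Sox8 were lower (log2 fold change of Meis3 -0.18, edgeR adjusted p = 0.0253). Meis3 was not called by DESeq2 or without wild-type replicate 2, Foxn3KO replicate 1 or Foxn3KO replicate 2.

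The proteins that the factors work with were examined by family. Among the 12 co-regulators of Six3 and Six6, Eya1, a phosphatase and co-activator of this family, rose 2.002-fold: it had 7.581 and 7.214 CPM in the libraries labelled wild-type against 14.66 and 14.96 CPM in those labelled Foxn3KO (log2 fold change 1.00, SE 0.109, edgeR adjusted p = 2.14e-06). Tle2, a Groucho co-repressor, fell by 0.34 (edgeR adjusted p = 0.0357), a call lost in DESeq2 and without wild-type replicate 1, Foxn3KO replicate 1 or Foxn3KO replicate 2; the other 10 were not called and the median was -0.03. Among the 9 TALE partners of the Meis proteins, Pbx4 rose from 11.25 to 17.81 CPM (log2 fold change 0.66, edgeR adjusted p = 5.98e-05), Meis3 and Tgif1 were lower, and Pbx2 and Pbx3 were not called; the median was 0.034. Of these 3 calls DESeq2 made 1, that of Pbx4, as did the fits without Foxn3KO replicate 1 or 2. Tgif1 was also not called without wild-type replicate 1 (-0.148, edgeR adjusted p = 0.135) or in edgeR's earlier fit (adjusted p = 0.0548), nor Meis3 without wild-type replicate 2.

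Among the 10 co-regulators of LIM-homeodomain proteins, 3 were called higher and 0 lower, with a median of 0.109. Ssbp4, a single-stranded DNA-binding protein that stabilises the LDB1 complex, rose from 94.13 to 135.2 CPM (log2 fold change 0.52, edgeR adjusted p = 1.19e-06). Its relative Ssbp3 rose by 0.18 and Lmo2 by 0.35 on the log2 scale, while Ldb1 itself was not called (-0.09, edgeR adjusted p = 0.118). Without Foxn3KO replicate 1 or 2 only Ssbp4 of these 3 was called. Lmo2 was also not called by DESeq2 (adjusted p = 0.171) or without wild-type replicate 1 (0.295, edgeR adjusted p = 0.114).

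Factors that set the changing competence of progenitors were 2 higher and 1 lower of 10, with a median of 0.132. Hmga2, a chromatin protein of early progenitors, rose from 17.73 to 26.54 CPM (log2 fold change 0.58, edgeR adjusted p = 0.000201). Pou2f2 rose (log2 fold change 0.27) and Pou2f1 fell (-0.15). Of these 3 calls DESeq2 made 2, and without Foxn3KO replicate 2 only Hmga2 was called.

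Genes known to be regulated by the 9 factors showed 0 higher and 2 lower of 7 tested, with a median of -0.049. Cdkn1b, the cell cycle inhibitor repressed by Six6, had 213.9 and 201.3 CPM in the libraries labelled wild-type against 174.0 and 178.4 CPM in those labelled Foxn3KO (log2 fold change -0.24, SE 0.0454, edgeR adjusted p = 0.000979). Rlbp1, a retinoid-binding protein of Müller glia, had a log2 fold change of -0.31 (edgeR adjusted p = 0.00349). The proneural genes downstream of Pax6, Atoh7 (0.03) and Neurog2 (0.04), and Notch1 (-0.05) were not called. Both calls held by DESeq2 and with each library left out.

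**Figure D5:**
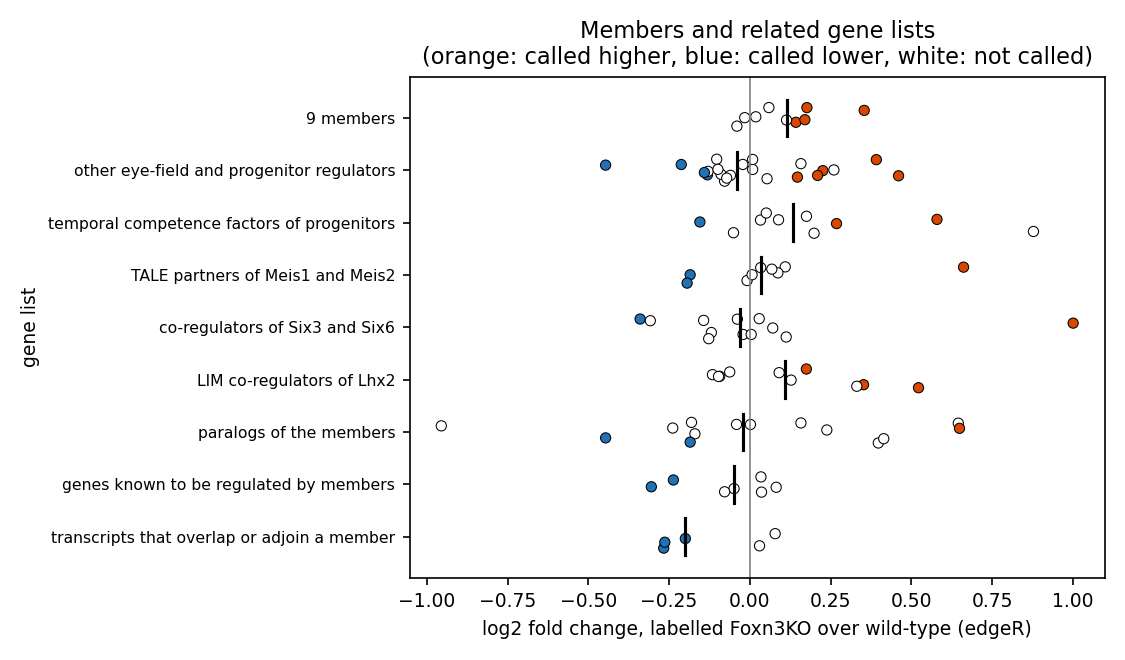
Log2 fold change of every tested gene (points) (horizontal axis) in the 9 members and the related lists (vertical axis), with the median of each as a black bar; orange was called higher, blue lower and white not called. The members lie between -0.04 and 0.35, and the other eye-field and progenitor regulators hold 5 calls above 0 and 4 under it.

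Marker lists of the cells that a dissected retina could hold were read beside these values. Of 8 other progenitor markers 0 were called higher and 3 lower (Hes1, Fgf15 and Ccnd1), and their summed level was 6570 and 6690 CPM in the libraries labelled wild-type against 6040 and 6030 CPM in those labelled Foxn3KO. Müller glia also express Sox9, Sox2, Rax and Lhx2. Markers of Müller glia and astrocytes showed 0 of 8 higher and 3 lower (Gfap, Slc1a3 and Rlbp1). Their sums were 943 and 963 CPM against 892 and 888 CPM. Gfap fell from 30.01 to 14.83 CPM (log2 fold change -1.02, edgeR adjusted p = 7.18e-08). Neither list held a called rise beside those of Sox9 and Sox2. The progenitor marker Sfrp2 was just short of a call, at a log2 fold change of 0.18 (edgeR adjusted p = 0.0542). That is about the size of the change of Six3 and Sox2. Ccnd1 was the largest part of the progenitor sums, at 3545 and 3709 against 3203 and 3184 CPM. Glul, not called, was the largest part of the glial sums, at 563.6 and 580.4 against 592.6 and 592.1 CPM. Of the progenitor calls, only that of Hes1 held without Foxn3KO replicate 1 and only that of Fgf15 without Foxn3KO replicate 2, so none held in both. The glial calls all held in both. Amacrine cells also express Pax6, Meis2 and the called Sox2 and Six3. Amacrine and horizontal cell markers were 0 higher and 4 lower of 10, with sums of 722 and 767 against 737 and 720 CPM. DESeq2 made 1 of these 4 calls. None held without Foxn3KO replicate 1, and only some without Foxn3KO replicate 2. Ganglion cell markers were 0 higher and 1 lower of 8, and photoreceptor precursor markers 3 higher and 0 lower of 8.

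RNA of markers of the lens, a tissue that expresses Pax6, Six3, Sox2 and Meis factors, was detected unevenly. Whether this RNA came from lens tissue was not tested. All 8 tested lens markers of 10 were called higher in the libraries labelled Foxn3KO, of which DESeq2 called 3 and a minimum of 10 counts in every library left 4 called, and their summed level was 5.28 and 59.6 CPM in the libraries labelled wild-type against 246 and 243 CPM in those labelled Foxn3KO. Wild-type replicate 1 had the lowest sum of lens markers. It was also the lowest library for every member except Pax6 and Lhx2, so the match is not particular to members expressed in the lens. The defining lens gene Cryaa had 0.3226 CPM there and 28.56 CPM in wild-type replicate 2. The markers did not rise alike. From wild-type replicate 2 to Foxn3KO replicate 1, Cryab went from 2.724 to 49.14 CPM and Crybb1 from 9.717 to 14.94 CPM. Ciliary margin markers were 4 higher and 1 lower of 8. Otx1 rose by 1.24 and Gja1 by 1.54 on the log2 scale, with list sums of 183 and 177 against 187 and 189 CPM. Cdon, called lower, was the largest part of these sums, at 138.8 and 133.4 against 120.3 and 121.3 CPM. Pigment epithelium markers were 0 higher and 3 lower of 7, with sums of 51.4 and 75.9 against 40.4 and 41.5 CPM; without wild-type replicate 2, 1 of these 3 calls held. Vessel and mesenchyme markers were 1 higher and 0 lower of 7, with sums of 379 and 399 against 379 and 374 CPM. Kdr alone, not called, had 358.8 and 373.0 against 353.7 and 347.3 CPM, so these sums say little of the other markers. None of the tested markers was at 0 in all libraries. The part of lens or other tissue in the rise of Six3, Six6, Sox2 and Sox9 was not tested.

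Over the 4 libraries, the genes of at least 10 CPM whose centred log2 CPM profile lay nearest to that of Sox9 were Pitpnm1, Eefsec and Ndn, at distances of 0.0187 to 0.0196, and those nearest to Sox2 were Sgta, Nr2e3 and Hars1, at 0.00526 to 0.0115. Of 10844 genes compared, 240 lay within 0.1 of Sox9 and 1152 within 0.1 of Sox2, so with 4 libraries many genes share either profile.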

How the data were processed

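Total RNA from the retina of individual embryos was sequenced in 4 libraries, grouped by their labels. A table of the whole series was used. It holds counts per gene and library that the authors deposited without normalization; build mm39 and DESeq2 are named in the submitters' processing notes, and the aligner, counter, annotation, use of strand and use of molecular identifiers are not given in the sources used here. The FPKM per library were computed by the authors, per the file headers. The log2 fold changes and p-values of the authors' own comparison, and a mean signal per gene that was not used, were also deposited in that table.

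From the counts, 18471 genes were read (1 repeated identifier dropped), filterByExpr left 17300, and edgeR 4.0.16 in R 4.3.3 (TMM factors, quasi-likelihood fit with legacy off, genotype as the only term, two-sided) was fitted to all of them. Each standard error is the size of the log2 fold change divided by the root of its F; 95% intervals are unadjusted. Depth sets a limit of 3 counts at 0.103 to 0.134 CPM, counting error only. In a test on simulated data of this comparison with 17080 genes tested, 85.7% of genes changed by a log2 fold of 1, 40.4% of those changed by 0.3 and 7 of the 16883 unchanged genes were called.

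Members and lists were chosen with earlier results of these data known. List genes were named by rule: called, at least 1 CPM, at most the 4 largest changes per list and, with under 2 calls, the 2 most abundant; for the 2 members with the smallest p, the 3 genes nearest in profile. The uncalled list genes, Gm28528 and Meis3 as a paralog were otherwise named after their values were seen. Alternatives were RLE and total count scaling, DESeq2 1.42.0, voom in limma 3.58.1, edgeR's earlier fit, no filter or one of 10 counts per library, a threshold of 0.1, a replicate block and leaving out each library. Some list genes are counted in their lists and not reported here by name. Figures used matplotlib 3.10.9.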

Additional observations from a re-analysis of the deposited data

How the results depend on the processing

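Of the 9 genes, 4 were called with RLE size factors, with either other filter, with voom, with edgeR's earlier fit and at a threshold of 0.1, and 3 with total count scaling, where Six6 was lost. DESeq2 called 2 of the 9 genes, 2437 of all tested genes (against 3795) and 14 of the related-list genes (against 23); the cause was not tested. Total count scaling changed the split of all calls from 2123 higher and 1672 lower to 1916 and 2060, and turned the sign of Meis2 (-0.0019). Leaving out a library gave 1 to 6 called members, 2323 to 5067 called genes and 11 to 31 called related-list genes; the lowest numbers came without a Foxn3KO library, and the lone library left in a group is then assumed to vary like the others. Leave-one-out ranges that crossed 0 were -0.0303 to 0.0005 for Pax6, -0.108 to 0.0293 for Lhx2, -0.0153 to 0.0566 for Meis2 and -0.0669 to 0.134 for Pax6os1. The order of the 9 genes by level per length was the same for all 9 with TMM-scaled counts. Replicate numbers do not pair the libraries: over 17300 genes the correlation of replicate differences was -0.00825. With the replicate block 4 members, 4222 genes and 25 related-list genes were called, and no call among the members changed. At this depth and with 2 libraries a group, 40.4% of genes simulated with a log2 change of 0.3 were called. The simulation changed 200 genes drawn at any level. It also gave every gene the same spread beyond counting error. That share is therefore not the share to be called among the 9 genes, though small changes can be missed.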
